A study of Chlamydomonas reinhardtii with 6 samples.

Results

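The genes described here changed in opposite directions under rotifers in cell groups and in single cells of the green alga Chlamydomonas reinhardtii. A gene was taken when its average level over all 6 libraries was at least 5 CPM (counts scaled to the library's total) and when the ratio of rotifer to control, each as CPM plus 0.5, was at least 2-fold in both morphotypes but with opposite signs. Of the 17741 genes in the count table, 11678 reached 5 CPM, and 136 of these met the rule. The 2 directions were kept apart. In 18 genes (0.154% of those at 5 CPM) the level was lower with rotifers in cell groups and higher with rotifers in single cells. In 118 genes (1.01%) it was higher with rotifers in cell groups and lower with rotifers in single cells. The genes were selected on their rotifer and control levels in these same libraries, so those levels and ratios are given as a description and carry no test.

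Chlamydomonas is normally a swimming unicell. A mother cell divides by multiple fission inside its own wall, and the daughters swim apart once they have hatched. Cells that stay together after division form clumps that small filter feeders have difficulty swallowing, and growth in clumps is a known defence against rotifers, which are microscopic animals that strain algae from the water. Nitrogen shortage is a different stress for this alga. It slows division and changes how cells use their internal stores.

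RNA-seq was done on 1 cell group isolate and 1 single cell isolate, so a difference between the morphotypes is a difference between these isolates. Both came from selection lines of the strain cc1009. The cell group isolate, which held no single cells, came from a line kept with the predator, and the single cell isolate, which was mostly motile, came from a line kept without it. Chemostat cultures ran for 10 days without treatment and then for 5 days in one of 3 ways, with the rotifer Brachionus calyciflorus at 80 µM nitrogen, without rotifers at 40 µM nitrogen (low nitrogen), or without rotifers at 80 µM nitrogen (control). RNA of 3 chemostats was pooled into each library, which left 1 library for each morphotype in each treatment. A ratio of rotifer to control within a morphotype therefore has no replicate check, and the interval printed beside it (exact Clopper-Pearson, 95%) covers counting error only. The paper names potential contamination of the rotifer samples, seen as a larger share of unmapped reads, and every member rests on these libraries.

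Counts on genes ran from 5453218 in the rotifer library of cell groups to 9054895 in the control library of single cells, so that 3 counts, taken as the floor for a gene with no count, equalled 0.331 to 0.550 CPM. In single cells the typical gene had a log2 ratio of rotifer to control of -0.29 when libraries were scaled to their totals, whereas in cell groups the median was -0.00046. Scaling by trimmed means (TMM) brought the single cell median to -0.00081. Relative to the shift of -0.29, the single cell changes of the members were a median log2 of 1.87 in the first direction and of -1.46 in the second. A drop in the RNA of a gene per cell and a change in the make-up of the cells cannot be told apart in such pooled cultures. The gene table, which carries the version 5.5 gene models, pairs no gene symbol or function with these identifiers, so all genes are given by identifier, and gene lists for flagella, cell wall, photosynthesis and nitrogen use could not be applied.

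Rotifers and the control differed by 2-fold in many more genes of single cells than of cell groups. In single cells 828 genes (7.09%) were at least 2-fold higher with rotifers and 2354 (20.2%) were at least 2-fold lower. In cell groups 295 genes (2.53%) were higher and 329 (2.82%) were lower. The 118 genes of the second direction made up 40.0% of the 295 genes that were higher in cell groups and 5.01% of the 2354 that were lower in single cells. The 18 genes of the first direction made up 5.47% of the 329 genes lower in cell groups and 2.17% of the 828 higher in single cells. A further 199 genes were 2-fold lower with rotifers in both morphotypes, and 35 were higher in both.

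**Figure D1:**
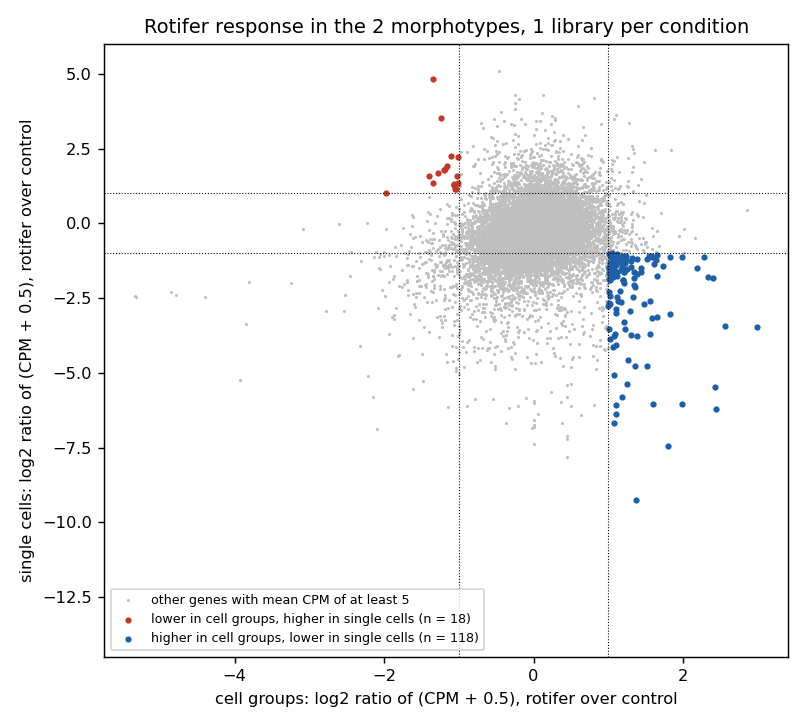
Each point is a gene with an average of at least 5 CPM, with its log2 ratio of rotifer to control in cell groups on the x axis and in single cells on the y axis. The 18 genes in red and the 118 in blue lie beyond the dotted lines at 2-fold in both morphotypes, and the blue genes reach further down in single cells than they reach right in cell groups.

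In most members, as in most genes, the change was larger in single cells. In the second direction the median gene was 2.29-fold higher with rotifers in cell groups (from 2.00-fold to 5.91-fold in genes with counts in both libraries) and 3.36-fold lower in single cells (from 2.00-fold to 173-fold in such genes, where the 0.5 added to the CPM holds down the fold of low levels), and the change was larger in single cells for 94 of the 118 genes (79.7%), beside 71.6% of all genes. With genes at 0 counts placed at their bound the medians on the log2 scale were 1.20 in cell groups and -1.75 in single cells. In the first direction the median gene was 2.19-fold lower with rotifers in cell groups (from 2.01-fold to 3.91-fold) and 3.004-fold higher in single cells (from 2.01-fold to 28.6-fold), with the larger change in single cells for 16 of 18 genes.

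Of the genes that were lower in cell groups and higher in single cells, Cre17.g707750 showed the widest gap between the morphotypes. It lies on chromosome 17 at 1595785 to 1599574. Its level was 2.20 CPM with rotifers, 17.7 in low nitrogen and 6.34 in control for cell groups. In single cells it was 67.4 CPM with rotifers, 50.6 in low nitrogen and 1.88 in control. The control library of single cells was the lowest of all and the rotifer library of single cells the highest. By counts the single cell library with rotifers stood 35.9-fold above its control (22.2 to 62.2), and the cell group control stood 2.88-fold above the library with rotifers (1.51 to 5.95).

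Cre02.g099400, on chromosome 2 at 4351798 to 4360116, was lowest in the single cell control as well. It had 4.77 CPM with rotifers, 68.5 in low nitrogen and 11.9 in control in cell groups, against 11.6, 15.2 and 0.552 CPM in single cells in the same order of treatments. The single cell ratio of rotifer to control was 21.1 (8.63 to 66.8). Its highest level was thus in low nitrogen cell groups and not in either rotifer library.

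Cre03.g191250 was more abundant and had narrower intervals. In cell groups it had 31.0 CPM with rotifers, 29.8 in low nitrogen and 67.1 in control. In single cells it had 222.8 CPM with rotifers, 101.3 in low nitrogen and 45.9 in control. The single cell library with rotifers exceeded its control 4.85-fold (4.34 to 5.42), and in cell groups the control exceeded the rotifer library 2.17-fold (1.82 to 2.59).

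In the next 4 genes by the size of the gap the change was between 3- and 6-fold in single cells. Cre04.g217850 had 7.52 CPM with rotifers and 15.6 in control in cell groups, and 21.7 CPM with rotifers and 4.31 in control in single cells. Cre13.g570851 had 16.0 CPM with rotifers and 36.2 in control in cell groups, and 50.8 CPM with rotifers and 13.1 in control in single cells. Cre06.g310900, whose span overlaps another gene so that some reads may not be its own, had 6.97 CPM with rotifers and 16.5 in control in cell groups, and 12.4 CPM with rotifers and 3.20 in control in single cells. In all 3 the single cell control was the lowest of the 6 libraries. Cre16.g678851 differed in that its lowest level, 1.07 CPM, was in low nitrogen cell groups, with 2.57 CPM with rotifers and 7.61 in control beside it. In single cells it had 16.6 CPM with rotifers, 7.11 in low nitrogen and 5.19 in control.

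The last 3 of the 10 leading genes of this direction divided by morphotype. Cre07.g353600 was higher in cell groups in every treatment, at 11.7 CPM with rotifers, 35.3 in low nitrogen and 27.7 in control, against 5.74, 3.01 and 1.33 CPM in single cells. Cre17.g723350, whose span also overlaps a neighbour, had 33.0, 88.8 and 81.1 CPM in cell groups, against 24.7, 24.8 and 7.40 CPM in single cells. Cre06.g275350, on chromosome 6 at 3139556 to 3148979, went the other way, with 2.38, 0.401 and 10.8 CPM in cell groups, against 100.4, 26.5 and 49.8 CPM in single cells. The groups of 3 libraries did not overlap for any of these 3 genes, which is a description given without the share over all genes.

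The remaining 8 genes of this direction averaged between 5.68 CPM (Cre12.g542650) and 113.8 CPM (Cre08.g359600) over the libraries. Cre08.g359600 had 59.2 CPM with rotifers, 312.1 in low nitrogen and 123.1 in control in cell groups, and 80.2, 72.0 and 35.9 CPM in single cells. Cre03.g153450 had 26.0, 14.0 and 52.8 CPM in cell groups, and 150.1, 279.6 and 58.2 CPM in single cells. These 2 reached their highest levels in low nitrogen, the first in cell groups and the second in single cells. All 18 genes together had medians of 8.62 CPM with rotifers, 15.9 in low nitrogen and 18.7 in control in cell groups, and of 26.0, 24.5 and 6.35 CPM in single cells. The lowest level was in the single cell control for 10 of the 18 genes, beside 15.7% of all genes at 5 CPM. The highest was in single cells with rotifers for 8, beside 12.8%. The rule required single cells with rotifers to exceed their control, so these counts are set in part by the choice of genes.

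**Figure D2:**
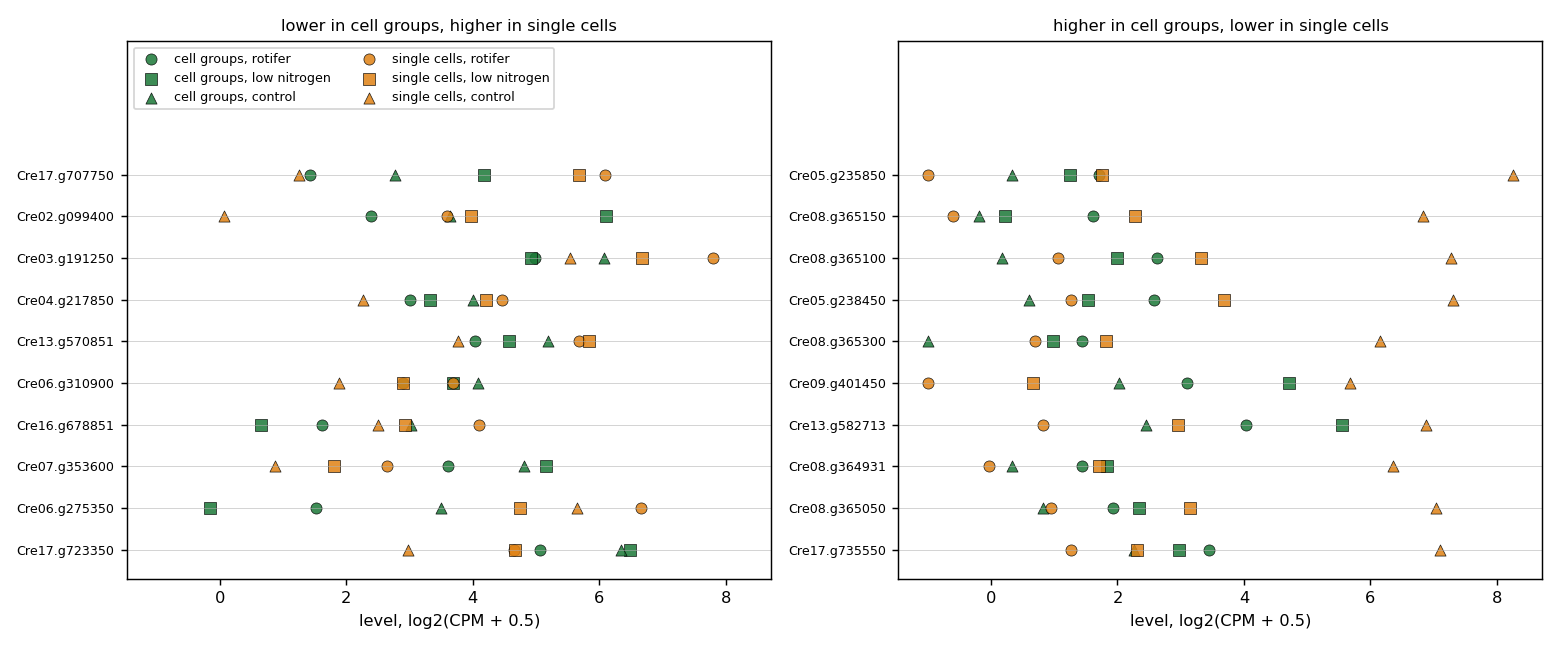
Levels as log2(CPM + 0.5) of the 10 genes per direction with the widest gap between the morphotypes' rotifer ratios, in cell groups (green) and single cells (orange), with 1 symbol per library. In the right panel the single cell control (orange triangle) stands at the far right in every gene, at 50.8 CPM or more, and in the left panel it is the lowest of the 6 libraries in 7 of the 10 genes.

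The second direction was led by genes whose level in the single cell control library was above that in the other 5. Cre05.g235850, on chromosome 5 at 2518838 to 2522343, had 305.4 CPM in the single cell control. In single cells it had no count with rotifers and 2.89 CPM in low nitrogen. In cell groups it had 2.75 CPM with rotifers, 1.87 in low nitrogen and 0.761 in control. Against the floor of 3 counts in the rotifer library, it was at least 639-fold lower with rotifers in single cells. In cell groups it was 3.61-fold higher with rotifers (1.32 to 11.4), a ratio that rested on 15 and 6 counts.

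Cre09.g401450, on chromosome 9 at 881429 to 887137, also had no count in the single cell library with rotifers. It had 8.07 CPM with rotifers, 25.7 in low nitrogen and 3.55 in control in cell groups, against 0, 1.08 and 50.8 CPM in single cells, which is at least 106-fold lower with rotifers in single cells. Cre13.g582713 had a similar order of libraries, with 16.0, 46.2 and 4.95 CPM in cell groups and 1.27 (8 counts), 7.23 and 117.6 CPM in single cells. For both genes the low nitrogen library was the highest of cell groups. In cell groups the rotifer library was 2.27-fold above control for Cre09.g401450 (1.38 to 3.79) and 3.22-fold above it for Cre13.g582713 (2.19 to 4.83).

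Cre17.g735550, on chromosome 17 at 5178500 to 5184399, had 10.5 CPM with rotifers, 7.36 in low nitrogen and 4.31 in control in cell groups. In single cells it had 1.91, 4.46 and 136.3 CPM. The single cell control stood 71.3-fold above the library with rotifers (40.6 to 138), and the cell group library with rotifers 2.42-fold above its control (1.56 to 3.82).

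Of the 10 leading genes of this direction, 5 lie close together on chromosome 8 and 1, Cre05.g238450, is next to another member on chromosome 5. Cre05.g238450 (3012894 to 3018335) had 5.50 CPM with rotifers, 2.41 in low nitrogen and 1.02 in control in cell groups, and 1.91, 12.4 and 158.3 CPM in single cells. Its neighbour Cre05.g238400 ends 488 bases before it and had 6.78, 3.75 and 2.54 CPM in cell groups and 11.2, 77.2 and 277.1 CPM in single cells. Both genes fell in the order control, low nitrogen, rotifer in single cells, and both were highest with rotifers in cell groups.

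Over a stretch of 79.1 kb of chromosome 8, from 1542058 to 1621147, 6 of the 15 annotated genes were members of the second direction. The stretch was drawn from the first to the last of these 6 members. Cre08.g364931 had 2.20 CPM with rotifers, 3.08 in low nitrogen and 0.761 in control in cell groups, and 0.478, 2.77 and 81.4 CPM in single cells. Cre08.g365050 had 3.30, 4.55 and 1.27 CPM in cell groups, and 1.43, 8.31 and 130.2 CPM in single cells. Cre08.g365100 had 5.68, 3.48 and 0.634 CPM in cell groups, and 1.59, 9.52 and 154.8 CPM in single cells. In each of the 3 the single cell control was far above every other library.

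Farther along, Cre08.g365150 had 2.57 CPM with rotifers, 0.669 in low nitrogen and 0.381 in control in cell groups, and 0.159, 4.34 and 113.5 CPM in single cells. The 0.159 CPM is 1 count, so its single cell ratio of control to rotifer, 712, had an interval of 128 to 28166. Cre08.g365300 had 2.20 and 1.47 CPM with rotifers and in low nitrogen and no count in control in cell groups, and 1.12, 3.01 and 70.6 CPM in single cells. It was at least 5.78-fold higher with rotifers in cell groups by the floor. Cre08.g365103, whose span overlaps another gene, had 3 counts with rotifers and 0 in control in cell groups, so no fold is given there, and its single cell control level was 43.3 CPM against 0.797 CPM with rotifers.

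Summed over these 6 genes, the level was 16.5 CPM with rotifers, 14.2 in low nitrogen and 3.05 in control in cell groups, and 5.58, 30.4 and 593.8 CPM in single cells. The sums for cell groups rest on 90, 106 and 24 counts. The neighbours that the rule did not take had the same high library. Of the 15 genes in the stretch 12 had at least 10 counts, and in all 12 the single cell control was the highest library. Over all genes at 5 CPM the single cell control was the highest for 27.6%. That level is higher than 10 counts, and some of the 12 were below it, such as Cre08.g365204 with an average of 1.02 CPM. Of the 12, 6 were members, chosen for a single cell control above rotifers, and the other 6 were not. One example of the latter is Cre08.g365200, which had 0.734, 2.01 and 0.508 CPM in cell groups and 1.91, 2.65 and 52.2 CPM in single cells. A less extreme one is Cre08.g365000, which had 15.2, 18.3 and 10.7 CPM in cell groups and 18.2, 14.1 and 28.6 CPM in single cells. The most abundant gene near the stretch, Cre08.g365400, had between 178.9 CPM (single cell control) and 284.7 CPM (low nitrogen cell groups), with the single cell control as its lowest library. Of the other flanking genes, Cre08.g364862 and Cre08.g365500 were highest in the single cell control, at 34.3 and 21.8 CPM against 17.5 and 9.52 CPM in the next library, so this order of libraries was not confined to the stretch.

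**Figure D3:**
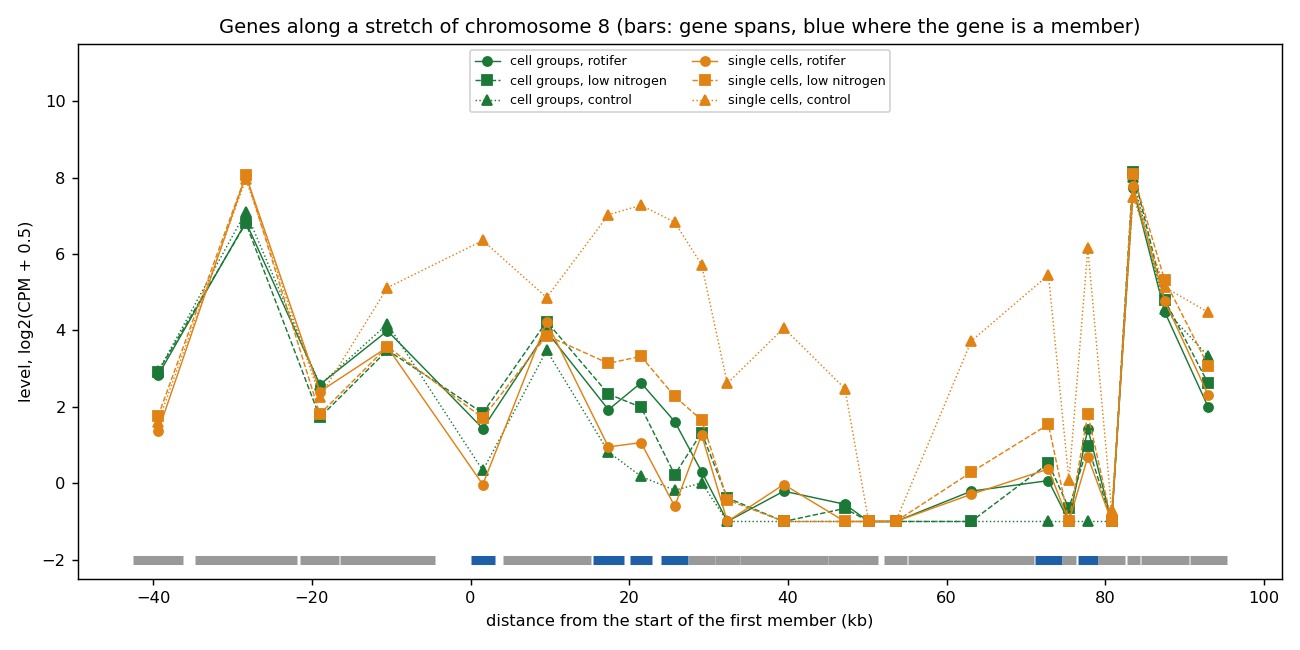
Levels as log2(CPM + 0.5) of neighbouring genes on chromosome 8 in the 6 libraries, against the distance in kb from the start of Cre08.g364931, with gene spans drawn as bars at the bottom (blue for the 6 members). The single cell control (orange triangles, dotted) lies above the other 5 libraries in all 12 genes with at least 10 counts inside the stretch, whereas the abundant gene just beyond its right end, Cre08.g365400, ranges from 178.9 to 284.7 CPM.

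Chromosome 8 held 13 genes of the second direction, or 2.84% of its 458 genes at 5 CPM, against 1.01% over the genome. Chromosome 17 held 12 (1.79%), chromosome 5 held 5 (1.58%) and chromosome 9 held 12 (1.54%). Counting genes no more than 2 steps apart, 9 pairs involving 16 members of the second direction were neighbours, 5 of these pairs were directly adjacent, and no pair was found in the first direction. The directions differ in size, with 118 genes against 18, and whether sets of these sizes drawn from all genes hold fewer pairs was not tested. Besides the pairs already given, Cre01.g037000 and Cre01.g037050 lie 48 bases apart. They had 9.72 and 13.4 CPM with rotifers in cell groups, against 3.93 and 5.33 CPM in the cell group control, and 7.81 and 10.2 CPM with rotifers in single cells, against 32.9 and 30.3 CPM in the single cell control. The neighbours Cre09.g390957 and Cre09.g390900 lie 2 bases apart, and the counting of reads between them may be uncertain. Cre09.g390957 had 62.3 CPM with rotifers and 28.8 in control in cell groups, and 32.5 and 83.5 CPM in single cells. Cre09.g390900 had 12.5 and 3.93 CPM in cell groups, and 3.98 and 9.17 CPM in single cells. The last pairs were Cre16.g693601 with Cre16.g693450 and Cre17.g729901 with Cre17.g730000, in all of which the single cell control was again the highest library.

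The single cell control was also the highest library for most of the second direction, and this library alone entered the single cell ratio as the reference. It was the highest of the 6 for 77 of the 118 genes (65.3%), against 27.6% of all genes at 5 CPM. It stood at least 5-fold above every other library in 18 genes (15.3%), against 0.891% of all genes. In the first direction no gene could show this, since the rule put the single cell control below single cells with rotifers. Cell groups with rotifers had the highest level of 27 genes. The lowest library was the single cell library with rotifers for 46 genes (39.0%), beside 31.9% of all genes, and the cell group control for 43 (36.4%), beside 16.1%. The rule required the single cell control to exceed the single cell library with rotifers, and cell groups with rotifers to exceed their control. A high single cell control also raised the average by which a gene reached 5 CPM. These shares are therefore set in part by the choice of genes and are given as a description.

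The median levels of the 118 genes were 10.4 CPM with rotifers, 7.96 in low nitrogen and 4.06 in control in cell groups, and 4.06, 5.90 and 24.6 CPM in single cells. The cell group control and the single cell library with rotifers thus had equal medians at this precision, and 11 and 13 genes lay under 1 CPM in them, of which 3 and 2 had no count. Cre17.g728450 was among those with no count in the cell group control. It had 3.48 CPM with rotifers and 4.15 in low nitrogen in cell groups, which is at least 9.15-fold higher with rotifers by the floor, and 3.51, 0.602 and 44.0 CPM in single cells. Abundant members divided by their highest library. Cre11.g468359, named here like the next gene after its values were seen, had 152.9, 184.5 and 71.4 CPM in cell groups and 59.0, 77.3 and 774.2 CPM in single cells. Cre11.g481600 was highest in cell groups instead, with 302.6, 426.1 and 140.6 CPM there and 70.4, 98.3 and 185.2 CPM in single cells. In the libraries of the rule, the members of this direction had median counts of 56.5 with rotifers and 32 in control in cell groups, and of 25.5 with rotifers and 223 in control in single cells. The counting interval of the ratio lay clear of 1 in both morphotypes for 115 of the 118 genes, but lay beyond 2-fold in both for only 18. In the first direction it lay clear of 1 in both for all 18 genes and beyond 2-fold in both for 1. The rule took these same ratios at 2-fold or more, so intervals clear of 1 follow largely from the choice of genes.

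**Figure D4:**
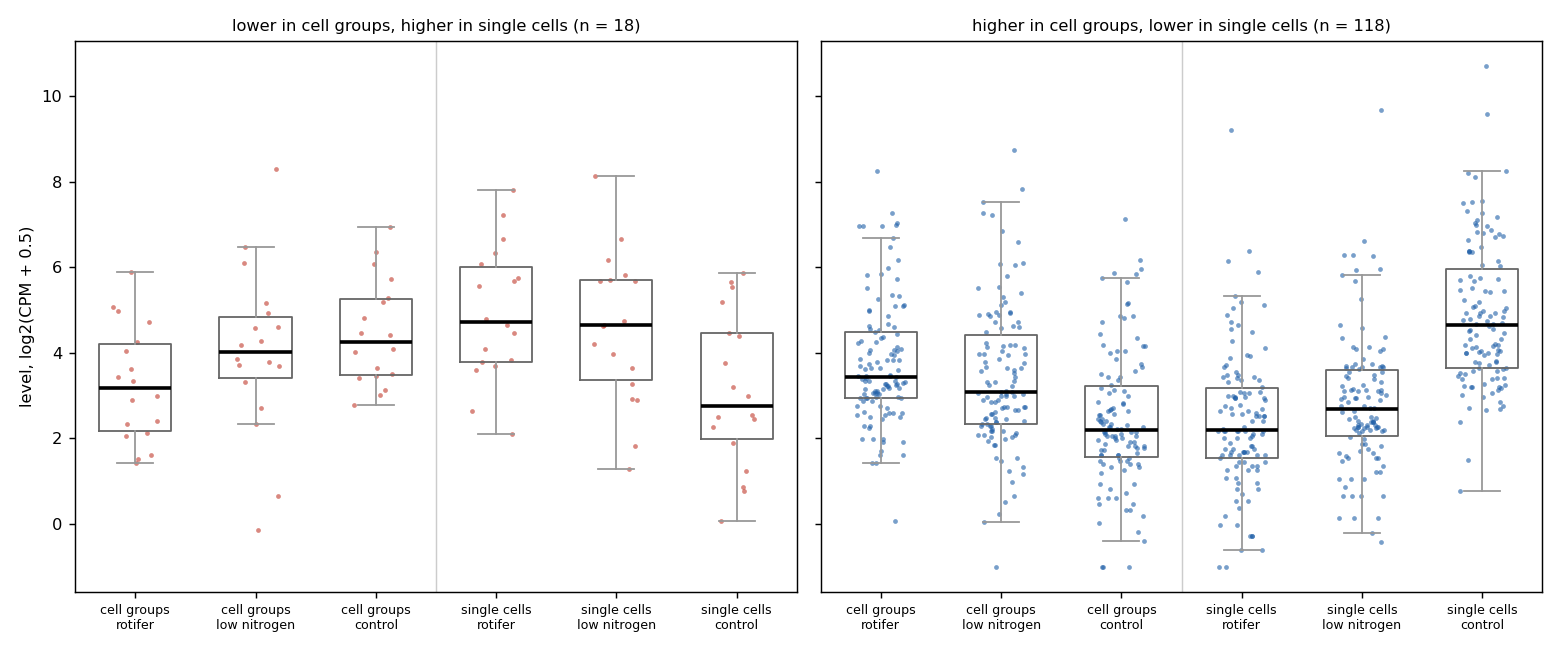
Levels as log2(CPM + 0.5) of the 18 genes of the first direction (left) and the 118 of the second (right) in each library, with 1 point per gene, the median as a thick line, the quartiles as the box and whiskers to the farthest point within 1.5 box lengths. The medians of the right panel are 10.4, 7.96 and 4.06 CPM in cell groups and 4.06, 5.90 and 24.6 CPM in single cells.

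Because the rotifer and control ratios differed in sign, the order of the morphotypes often differed between the treatments. With rotifers 102 of the 118 genes were higher in cell groups, beside 56.4% of all genes. In control 113 were lower in cell groups, beside 57.0%, and the order differed for 97. Of the 18 genes of the first direction 15 were lower in cell groups with rotifers, beside 43.5% of all genes. In control 15 were higher in cell groups, beside 43.0%, and the order differed for 12. The rule chose the genes on these same libraries, so the counts are largely set by the choice and are given as a description.

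The low nitrogen libraries did not enter the ratios of the rule and only contributed to the 5 CPM average. They show the morphotypes away from both rotifers and the control. In low nitrogen 73 of the 118 genes of the second direction (61.9%) were higher in cell groups, beside 57.1% of all genes, and 47 (39.8%) were at least 2-fold higher, beside 16.6% of all genes. At least 2-fold lower in cell groups were 14 (11.9%), beside 9.09%. The median log2 ratio of cell groups to single cells was 0.61, beside 0.13 over all genes. Of the genes of the first direction 12 of 18 were lower in cell groups, beside 42.9% of all genes, with 8 at least 2-fold lower and 5 at least 2-fold higher. Their median log2 ratio was -0.93. With 1 library a side these values carry no test.

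**Figure D5:**
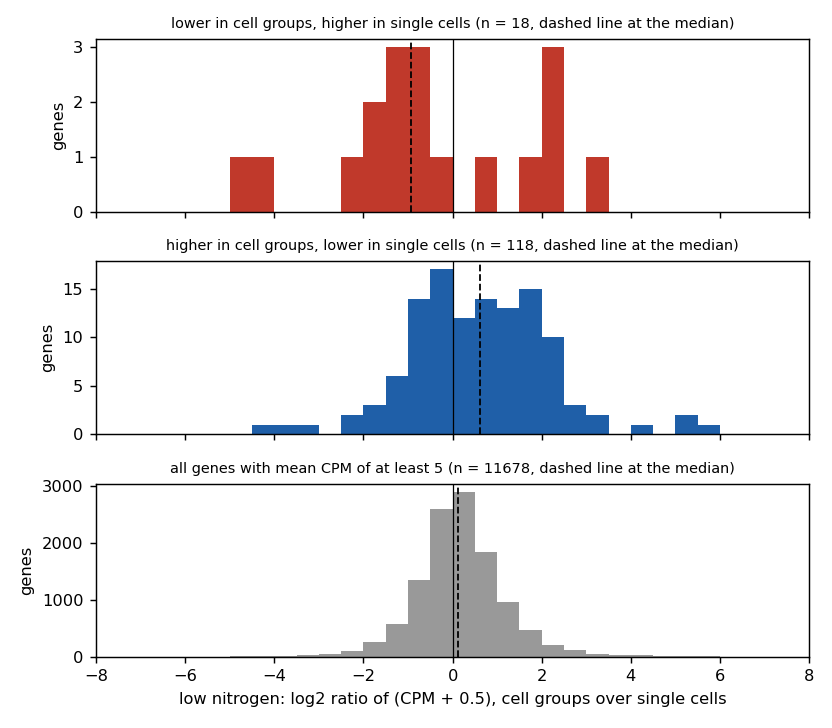
Number of genes (y axis) by log2 ratio of cell groups to single cells in low nitrogen (x axis), for the 18 genes of the first direction, the 118 of the second and all 11678 genes at 5 CPM. The dashed medians lie at -0.93, 0.61 and 0.13, and the top panel has genes on both sides of 0 with 12 of 18 below it.

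Low nitrogen levels were set against both other treatments. In single cells the low nitrogen level was nearer to rotifer than to control on the log2 scale for 94 of the 118 genes of the second direction (79.7%), beside 51.2% of all genes. In cell groups this held for 79 (66.9%), beside 47.4%, and in both morphotypes for 60 (50.8%), beside 25.9%. Among the 18 it held for 14 genes in single cells, 9 in cell groups and 6 in both. The rule required rotifer and control to be 2-fold apart, which is not so for the other genes, so the shares are given as a description. When low nitrogen took the place of the control as the baseline, which was tried after seeing the data, 11 genes met the rule in the second direction, of which 3 were among the 118, and 22 met it in the first, of which 0 were among the 18. The rule is built on ratios to the control, so another baseline gives other ratios, and nothing is read from the small overlap. Low nitrogen in place of rotifers, also tried after seeing the data, gave 249 genes in the second direction, 36 of them among the 118. In the first direction it gave 34, of which 2 were among the 18.

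Across the 3 treatments the morphotypes were also compared gene by gene with the quasi-likelihood test of edgeR, with treatment as a covariate and Benjamini-Hochberg adjustment. Of the 14136 genes tested, 1077 (7.62%) had an adjusted p under 0.05, with 673 (4.76%) higher and 404 (2.86%) lower in cell groups. Of the members, 5 of the 117 tested in the second direction (4.27%) and 1 of 18 in the first (5.56%) were called. At an unadjusted p under 0.05 they were 19 (16.2%) and 7 (38.9%), beside 26.6% of all genes at 5 CPM that were tested. The unadjusted share of the first direction thus lay above that of all genes, and the other shares of the members lay below. Members were chosen for rotifer responses of opposite sign, which enter this fit as residual spread. The shares are therefore given as a description. Leaving out the single cell control gave 39 calls in the second direction, 11 in the first and 1777 over all genes, and leaving out the cell group control gave 48, 12 and 2120. Calls over all genes rose without a control as well. The rule chose the members on the rotifer and control libraries, so nothing is read from the rise. Without the rotifer library of single cells the calls were 5 and 1, and without that of cell groups also 5 and 1. Leaving out the low nitrogen library of cell groups gave 2 and 0, and leaving out that of single cells gave 3 and 0. Over all genes the lowest count was 211, without the rotifer library of cell groups.

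The called members are named after their values were seen. All but Cre17.g703800 kept the 3 libraries of each morphotype apart. A call in this fit favours genes that do so, and no share over all genes is given, so this is a description only. In the second direction 3 were higher in cell groups. Cre08.g368800, on chromosome 8 at 2102110 to 2105235 and so outside the stretch described above, had 125.1 CPM with rotifers, 68.5 in low nitrogen and 61.5 in control in cell groups, against 0.319, 0.602 and 1.21 CPM in single cells (log2 fold change 6.74, edgeR adjusted p = 0.00335). Cre06.g286100 had 33.9, 28.5 and 16.0 CPM in cell groups, against 0.319, 0.241 and 2.32 CPM in single cells (log2 fold change 4.85, edgeR adjusted p = 0.0167). Cre14.g619400 had 40.5, 21.9 and 19.9 CPM in cell groups, against 2.87, 1.81 and 8.72 CPM in single cells (log2 fold change 2.79, edgeR adjusted p = 0.0286). The single cell levels of the first 2 with rotifers are 2 counts each, so their opposite response in single cells rests on very few reads.

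The other 2 called genes of the second direction were lower in cell groups. Cre16.g659700, on chromosome 16 at 2350939 to 2352908, was the most abundant member, with 131.5, 55.0 and 28.4 CPM in cell groups, against 589.8, 817.2 and 1661.8 CPM in single cells (log2 fold change -3.99, edgeR adjusted p = 0.0228). Cre17.g703800 had 4.40 CPM with rotifers, none in low nitrogen and 0.508 in control in cell groups, against 82.4, 1.08 and 181.1 CPM in single cells (log2 fold change -5.92, edgeR adjusted p = 0.0132). Its levels in the morphotypes overlapped, since single cells in low nitrogen were below cell groups with rotifers. In the first direction Cre06.g275350, with the values given above, was lower in cell groups (log2 fold change -4.22, edgeR adjusted p = 0.0303).

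The threshold passed through a continuum of values. Just inside it in the second direction was Cre36.g759747, which overlaps another gene and had 25.1 CPM with rotifers and 12.3 in control in cell groups (2.00-fold) and 0.478 and 6.07 CPM in single cells. The other was Cre02.g089050, which had 7.89 and 3.55 CPM in cell groups and 5.26 and 11.0 CPM in single cells (2.00-fold lower). Just outside were Cre12.g492850, with 7.34 and 3.43 CPM in cell groups and 3.67 and 16.2 CPM in single cells, and Cre11.g467589, with 12.3 and 2.66 CPM in cell groups and 1.91 and 4.31 CPM in single cells. In the first direction Cre03.g153450 and Cre06.g275350 were the nearest inside, at 2.01-fold in cell groups and 2.01-fold in single cells. Just outside were Cre06.g289650, with 3.67 and 7.74 CPM in cell groups and 123.0 and 51.9 CPM in single cells, and Cre02.g109800, with 2.02 and 4.44 CPM in cell groups and 13.5 and 3.98 CPM in single cells. By gene span the members resembled the rest, with a median of 5369 bases in the second direction and 4975.5 bases in the first, beside 4862 bases over all genes.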

How the data were processed

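RNA-seq libraries, 1 for each of 2 morphotypes in 3 treatments, were sequenced by the authors from RNA pooled over 3 chemostats each. The methods and the sample records give different numbers of chemostats in all. The authors checked reads with FastQC, mapped them by HISAT2 and assigned them to genes by HTSeq, and the deposited values are whole-number counts without normalization. Tool versions and the strand setting of the counting are not given in the sources used here, so overlapping genes may share reads. The methods note potential contamination of the rotifer libraries, seen as a larger unmapped share, whose part in the results was not tested. A second deposited table holds log2 values normalized with DESeq2 by the authors and was used only for an alternative. The last table holds the authors' own comparisons (fold changes and adjusted p-values) and was not used. Columns of means over libraries were not used.

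CPM was the count scaled to the column sum, and ratios used CPM plus 0.5. The members and lists were chosen with earlier results of these data known. Intervals were conditional binomial (Clopper-Pearson, 95%) on the counts of both libraries. Morphotypes were tested with edgeR 4.0.16 in R 4.3.3 on the deposited counts of all 6 libraries, with TMM scaling, treatment as covariate, and genes of at least 15 counts in all and about 10 counts in at least 3 libraries. The 3 treatments served as replicates, so the spread holds treatment effects, and p-values refer to these isolates. On simulated counts of 14136 genes for this comparison the fit recovered 196 of 200 genes changed 4-fold, with 3 false calls. The simulated counts had a dispersion of 0.05 and no treatment effects, so this share does not carry over to the real libraries. Alternatives used DESeq2 1.42.0, other scalings, pseudocounts, filters and folds, and each library left out. Genes named are the 10 per direction with the widest difference between the morphotypes' log2 ratios, the 2 nearest the threshold on either side, and neighbouring members. Gene positions came from the RefSeq gene table of assembly version 5.5, which matched 17738 of the 17741 identifiers and all 136 members. Of 23 positions listed with a gene by the authors, 23 fell in the same gene of that table. It holds 0 symbols other than locus tags, so gene lists matched no gene. Sequences were not analysed here.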

Additional observations from a re-analysis of the deposited data

Results flagged for a closer look

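The rotifer response differed in direction between the morphotypes in 18 genes that were lower with rotifers in cell groups and higher with rotifers in single cells, and in 118 genes that were higher in cell groups and lower in single cells. These are the genes the rule selected, and the difference was not tested, since each condition has 1 library.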

How the results depend on the processing

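The number of genes in each direction depended on scaling, level and fold. In place of 118 and 18 genes (second and first direction), DESeq2 size factors gave 75 and 23, so the first direction made up 23.5% in place of 13.2%, and TMM gave 83 and 20. No filter on low levels gave 287 and 39, an average of at least 20 CPM gave 33 and 10, a fold of 3 gave 12 and 0, and the authors' normalized log2 values gave 4 and 0. Chosen after seeing the data, low nitrogen as the baseline gave 11 in the second direction, and low nitrogen in place of rotifers gave 249 (36 of them among the 118) and 34 (2 among the 18). The cause of these differences was not tested. The low nitrogen median of the first direction was -1.17 with TMM, -1.09 with DESeq2 size factors, -0.031 with a pseudocount of 1 and -1.47 at 20 CPM. No gene of it was left at 3-fold. That of the second direction was 0.74 with a pseudocount of 1, 0.87 at 20 CPM and 0.19 at 3-fold. The DESeq2 Wald test called 18 members of the second direction, 6 of the first and 1732 genes in all, and edgeR without a filter called 2 of the first. Leaving out each library gave between 2 and 48 calls in the second direction, between 0 and 12 in the first, and between 211 and 2120 over all genes. The lowest of the last came without the rotifer library of cell groups and the highest without the control of cell groups. Pairing by replicate was not possible because the labels give no replicate numbers to pair on. The treatment covariate sets the morphotypes against each other within each treatment, and without it 6, 1 and 1054 genes were called. With 1 library per condition, ratios of members with few counts are limited by depth.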
